A study of Mus musculus with 6 samples.

Results

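The genes described here are 10 transcription factor and co-regulator genes of the immediate early class, Fos, Fosb, Jun, Junb, Jund, Egr1, Egr2, Egr3, Ier2 and Atf3, taken by symbol from the 24063 gene symbols of the count tables, with no threshold on a measured value. All 10 were found, and all 10 passed the filter on low counts that left 14145 genes for testing. RNA sequencing had been done on LSK cells, the lineage-negative, Sca-1 and c-Kit positive bone marrow fraction that holds the blood stem cells and early progenitors. Asxl2-/- LSK cells came from 3 C57BL/6 mice with a conditional Asxl2 allele and the Mx1-cre transgene. Control LSK cells came from 3 C57BL/6 mice labelled wild type, whose library titles also carry the Mx1-cre name. All 6 mice had been injected with pIpC, a synthetic double-stranded RNA that raises interferon and thereby switches on the Mx1 promoter. The controls had thus met the same inducer. The paper states that the LSK cells were taken weeks after pIpC was given. The Mx1 promoter answers interferon in many cell types and not in blood cells alone, and the age of the mice is not given in the sources used here.

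Immediate early genes are transcribed within minutes of a stimulus, without new protein synthesis, by factors such as SRF and CREB that already sit in the nucleus. Fos and Jun proteins pair through leucine zippers to form AP-1, which binds DNA and drives secondary genes, while Egr proteins bind GC-rich sites through zinc fingers. In blood cells they answer cytokines, adhesion and stress, and cell dissociation and sorting are known to raise them, so their level in sorted cells can reflect both the animal and the handling.

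The deposited values were raw read counts, given per transcript for Asxl2-/- replicates 1 and 3 and control replicate 2 (gene-count files) and per exon for Asxl2-/- replicate 2 and control replicates 1 and 3 (exon-count files). Counts over all genes totalled 25528540 to 29136012 in the 3 gene-count libraries and 53147729 to 55032075 in the 3 exon-count libraries, where a read over a splice junction can be counted once in each exon. These totals therefore do not compare as depth, and the kind of file was a covariate in the comparison of the groups. Levels are given in CPM, counts scaled by the normalised library size. In the controls the exon-count files differed from the gene-count file by -1.81 (Egr3) to 0.30 (Egr1 and Fosb) on the log2 scale. That gene-count file is the single library of control replicate 2, so its mouse and its kind of file cannot be told apart. Among the knockouts, Egr3 was at 0.958 CPM in exon-count replicate 2 and at 0.958 and 1.48 CPM in gene-count replicates 1 and 3. CPM values compare best within a kind of file. Fold changes between the groups were adjusted for the kind of file, while CPM values and their sums were not. Asxl2, the targeted gene, was counted 3533, 4804 and 4213 times in its knockout replicates 1 to 3 and 4433, 3543 and 4105 in the controls (log2 difference 0.11 ± 0.095, SE, adjusted p = 0.469 in edgeR). Counts summed over the transcript also cover exons outside the deletion, so they do not check the labels. Xist, which silences one X chromosome in female cells, had 49540 to 66689 counts in the knockout libraries and 590 to 3194 in the controls. Control replicate 1 had 61.3 CPM of Xist, and control replicates 2 and 3 had 20.5 and 13.0 CPM. Effects of genotype and of sex therefore cannot be told apart here, for the 10 genes as for any other.

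Promoter windows were taken from RefSeq (GRCm38.p6) for 7 of the genes, Fos, Fosb, Jun, Junb, Jund, Egr2 and Atf3, and each covered 250 bases before to 50 bases after the start. The 150 bases before the start are printed for 5 of them, each holding a match to an element named next. Capitals mark exact matches to TGACG (the core of the CREB element, CGTCA on the other strand), TGACATCA (the Jun promoter element), the CArG box of SRF, GCGNGGGCG (the Egr element) and TATAAA.
Fos, chr12:85473740-85473889, plus strand: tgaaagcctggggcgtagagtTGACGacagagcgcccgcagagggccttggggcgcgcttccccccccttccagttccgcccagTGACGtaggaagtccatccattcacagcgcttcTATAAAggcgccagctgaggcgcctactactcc
Fosb, chr7:19310046-19310195, minus strand: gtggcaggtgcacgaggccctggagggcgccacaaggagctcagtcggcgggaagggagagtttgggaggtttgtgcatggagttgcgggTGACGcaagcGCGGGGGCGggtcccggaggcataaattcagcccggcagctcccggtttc
Jun, chr4:95052223-95052372, minus strand: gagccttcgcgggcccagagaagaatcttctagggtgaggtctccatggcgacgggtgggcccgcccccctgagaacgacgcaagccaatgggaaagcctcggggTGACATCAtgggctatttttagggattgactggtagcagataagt
Egr2, chr10:67537719-67537868, plus strand: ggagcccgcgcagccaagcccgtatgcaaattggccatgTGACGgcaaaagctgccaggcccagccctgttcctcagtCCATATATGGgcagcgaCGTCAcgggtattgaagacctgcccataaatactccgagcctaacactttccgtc
Atf3, chr1:191183334-191183483, minus strand: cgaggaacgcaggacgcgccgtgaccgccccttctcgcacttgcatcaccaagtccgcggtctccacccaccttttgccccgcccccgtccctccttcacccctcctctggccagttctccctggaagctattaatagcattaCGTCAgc

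The core element TGACG was found on either strand in 5 of the 7 windows, those of Fos, Fosb, Junb, Egr2 and Atf3, against 21.0% of all 27025 windows. The whole CREB element TGACGTCA and the AP-1 element TGANTCA were in none of the 7, against 1.88% and 7.93% of all windows. TGACATCA, a variant element through which Jun is known to act on its own gene, was in the Jun window alone of the 7 (3.76% of all windows). The CArG box was in the Egr2 window alone (1.57%) and GCGNGGGCG in the Fosb window alone (5.55%). TATAAA was in the windows of Fos and Junb (14.2%). A match describes letters only, and a motif that was not matched here may lie outside the window.

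Compared per kb of transcript, which allows genes to be set against each other, Fos had the highest level in every library. Control replicate 2, the control given as gene counts, had 167 CPM per kb of Fos, 99.7 of Jun, 46.7 of Ier2, 42.8 of Junb, 39.2 of Jund, 24.2 of Fosb, 12.3 of Egr1, 5.57 of Atf3, 0.761 of Egr3 and 0.305 of Egr2. Fos stood at percentile 96.8 and Jun at percentile 94.0 among all genes tested in that library, and Egr2 at percentile 10.8. Fos came before Jun, and Egr1, Atf3, Egr3 and Egr2 followed each other in that order at the low end, in 6 of 6 libraries. Ier2, Junb, Jund and Fosb lay between them without a fixed order, since Fosb took rank 3 in Asxl2-/- replicate 3 and rank 6 in control replicate 2. The plot of levels by library shows this spread, and 1 library above the rest for most of the genes.

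**Figure D1:**
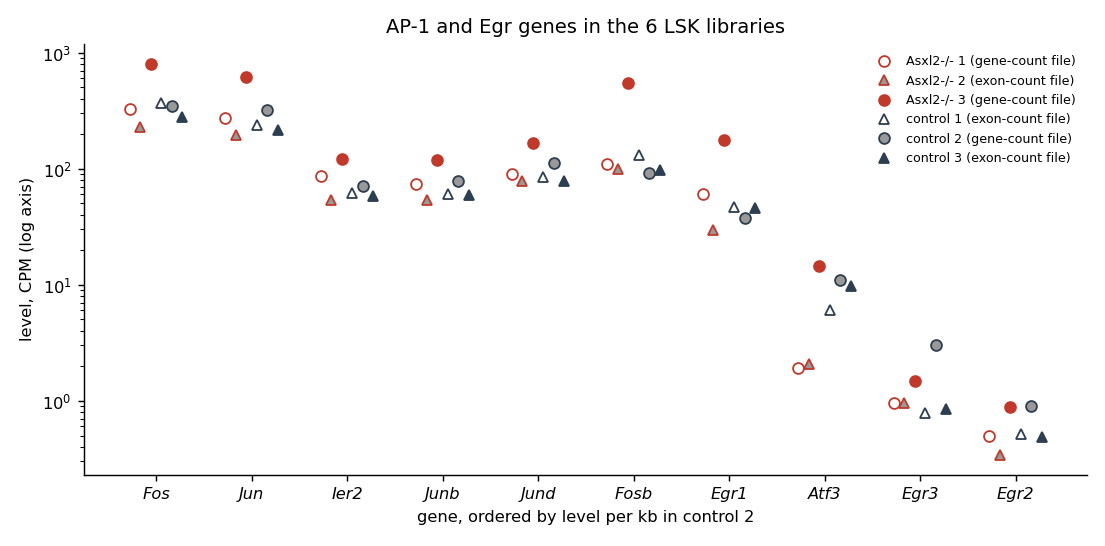
Level of each of the 10 genes (CPM, log axis) in the 6 libraries, 1 symbol per library, circles for gene-count and triangles for exon-count files. Asxl2-/- replicate 3 (filled red circle) is the highest point for 8 genes, and Atf3 is near 2 CPM in Asxl2-/- replicates 1 and 2 and 6.04 to 14.4 CPM in the other 4 libraries.

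Fos (chr12:85473901-85477270, 4 exons), the prototype AP-1 partner with a short-lived messenger RNA, stood at 328, 227 and 803 CPM in Asxl2-/- replicates 1, 2 and 3 and at 371, 349 and 277 CPM in control replicates 1, 2 and 3. In CPM, knockout replicate 3 was the highest of all 6 libraries and replicate 2 the lowest, so the control values lay within the knockout range. The log2 fold change was 0.09 ± 0.45 (SE, edgeR adjusted p = 0.920), inside the spread between replicates. It was 0.56 in the gene-count files alone and -0.50 in the exon-count files alone.

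Fosb (chr7:19302696-19310045, 4 exons), another Fos family member that also yields the long-lived delta-FosB form, was counted 3115, 5322 and 15554 times in knockout replicates 1, 2 and 3 and 6798, 2627 and 4580 times in the controls. A single library, Asxl2-/- replicate 3, was high at 548 CPM, and the other 5 lay between 91.2 and 130 CPM. The log2 fold change was 0.83 ± 0.80 (SE, edgeR adjusted p = 0.531) with that library and -0.017 ± 0.18 (adjusted p = 0.968) without it. In the ratio of the gene-count knockout libraries described further on, Fosb ranked 2 of 10927 genes. That was the highest rank of the members with at least 100 counts in both libraries.

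Jun (chr4:95049036-95052222, 1 exon), the main dimer partner of Fos, stood at 275, 196 and 619 CPM in Asxl2-/- replicates 1, 2 and 3 and at 238, 318 and 213 CPM in the controls. Knockout replicate 3 was again the highest in CPM and replicate 2 the lowest, with the controls between. Asxl2-/- over control, the log2 fold change was 0.15 ± 0.34 (SE, edgeR adjusted p = 0.816). Jun lies on 1 exon, so no read can be counted in several exons. Its controls were lower in the exon-count files than in the gene-count file, by -0.50 on the log2 scale. The gene-count control is 1 library, so its mouse and its kind of file cannot be told apart.

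Junb (chr8:84976909-84978748, 1 exon), known in blood as a brake on stem and myeloid cell expansion, had 72.9, 53.4 and 119 CPM in the knockout replicates 1, 2 and 3 and 59.8, 78.7 and 58.7 CPM in the controls. Jund (chr8:70697739-70700616, 1 exon), the Jun gene known for steady expression in resting cells, had 89.4, 78.3 and 167 CPM in the knockout and 84.6, 113 and 78.6 CPM in the controls. In both genes the knockout values enclosed the control values, and within each kind of file the 3 libraries were ordered as for Jun. Log2 fold changes were 0.07 ± 0.21 for Junb (SE, edgeR adjusted p = 0.865) and 0.06 ± 0.24 for Jund (SE, edgeR adjusted p = 0.894). Leaving out Asxl2-/- replicate 3 turned them to -0.16 and -0.21.

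Atf3 (chr1:191170297-191183333, 4 exons), a stress-induced member of the ATF/CREB family that represses as a homodimer, followed another course. It was counted 54, 110 and 408 times in knockout replicates 1, 2 and 3 (1.92, 2.07 and 14.4 CPM) and 315, 317 and 462 times in controls 1, 2 and 3 (6.04, 11.0 and 9.74 CPM). Knockout replicates 1 and 2 were below all 3 controls. Replicate 3 had the highest CPM, but with the effect of the kind of file taken off it lay at 3.39 log2 CPM, between control replicates 1 (3.07) and 3 (3.75), so the groups overlapped. With all libraries the log2 fold change was -1.17 ± 0.83 (SE, edgeR adjusted p = 0.392), the most negative of the 10 genes. Without Asxl2-/- replicate 3 it was -2.20 ± 0.32 (SE, edgeR unadjusted p = 0.000935, adjusted p = 0.0641), which did not pass the threshold of 0.05. Its direction was the same in the gene-count files alone (-1.05) and in the exon-count files alone (-1.87).

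Fos, Fosb and Atf3 each have an exon 3 of 108 bases, which codes for much of the basic DNA-binding region. That exon held the most counts per base in all 3 exon-count libraries, for Fos 13.0 per base in Asxl2-/- replicate 2, 21.2 in control replicate 1 and 13.9 in control replicate 3. Its share of the gene's counts was 11.7%, 11.8% and 11.5% in those libraries, 1 knockout and both exon-count controls. Short exons gain more than long ones from reads that are counted on both sides of a junction, and the part of that in these values was not tested.

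Egr1 (chromosome 18, 2 exons), a zinc finger factor known to restrain stem cell division and exit from the niche, had 60.2, 29.3 and 176 CPM in Asxl2-/- replicates 1, 2 and 3 and 46.9, 37.7 and 46.0 CPM in the controls. In CPM, knockout replicate 3 was the highest and replicate 2 the lowest of all 6 libraries, and replicate 1 was also above the controls. With the effect of the kind of file taken off, knockout replicate 1 (5.54 log2 CPM) lay below control replicates 1 (5.93) and 3 (5.90). Control replicate 2 was then the lowest library (4.86). The log2 fold change of Egr1 was 0.49 ± 0.70 (SE, edgeR adjusted p = 0.687). The 2 kinds of file gave opposite signs, with 1.45 in the gene-count files alone and -0.67 in the exon-count files alone.

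Egr2 (chr10:67537869-67542188, 2 exons), which acts in lymphoid and myeloid fate choice, was counted 14, 18 and 25 times in Asxl2-/- replicates 1, 2 and 3 and 27, 26 and 23 times in the controls, under 1 CPM in every library. With the effect of the kind of file taken off, the knockout libraries lay at -1.29, -0.95 and -0.52 log2 CPM and the controls at -0.40, -0.49 and -0.48. Egr2 was thus the only one of the 10 genes whose groups did not overlap on that scale, where 44.4% of all genes tested did not overlap. Between the groups the log2 difference was -0.48 ± 0.40 (SE, edgeR adjusted p = 0.471).

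Egr3 (chr14:70077445-70082613, 3 exons in the transcript used), a related factor with roles in lymphocyte activation, had 27, 51 and 42 counts in the knockout libraries and 41, 86 and 40 in the controls. Control replicate 2 was the highest library at 2.99 CPM, and the other 5 lay between 0.787 and 1.48 CPM. As a log2 fold change, Egr3 was at -0.54 ± 0.42 (SE, edgeR adjusted p = 0.434) with that control and 0.24 without it. Egr4, the remaining Egr gene, had at most 3 counts in any library and was not tested, and its count of 0 in Asxl2-/- replicate 2 and control replicate 3 allows up to 0.0545 and 0.0563 CPM. Nab1 and Nab2, corepressors that bind Egr proteins, had log2 fold changes of 0.20 ± 0.10 and 0.77 ± 0.25 (SE, edgeR adjusted p = 0.267 and 0.126).

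Ier2 (chr8:84661331-84662852, 1 exon), a small nuclear co-regulator induced together with Fos, stood at 85.9, 53.9 and 121 CPM in Asxl2-/- replicates 1, 2 and 3 and at 61.0, 71.1 and 58.6 CPM in the controls. In CPM, knockout replicates 3 and 1 were the highest libraries and knockout replicate 2 the lowest. With the effect of the kind of file taken off, knockout replicate 1 (6.13 log2 CPM) lay below control replicates 1 (6.22) and 3 (6.16). Control replicate 2 was then the lowest library (5.86). The log2 fold change was 0.19 ± 0.21 (SE, edgeR adjusted p = 0.566) and 0.0033 ± 0.12 without Asxl2-/- replicate 3.

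The comparison of the groups asked whether loss of Asxl2 moved these genes. None of the 10 passed the threshold of 0.05 on the adjusted p of edgeR, and none had an unadjusted p under 0.05, against 2.34% (2.04% raised and 0.304% lowered) and 27.7% of all 14145 genes tested. None passed with DESeq2 or limma-voom either, which called 16.5% and 3.04% of all genes. The log2 fold change was above 0 for 7 of the 10 genes, with a median of 0.08 beside 0.00052 over all genes tested. Within the gene-count files alone the median was 0.31 and within the exon-count files alone -0.18. Standard errors ran from 0.21 for Ier2 and Junb to 0.83 for Atf3, so changes of the size seen for Fosb or Atf3 could not be told from the spread between replicates.

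**Figure D2:**
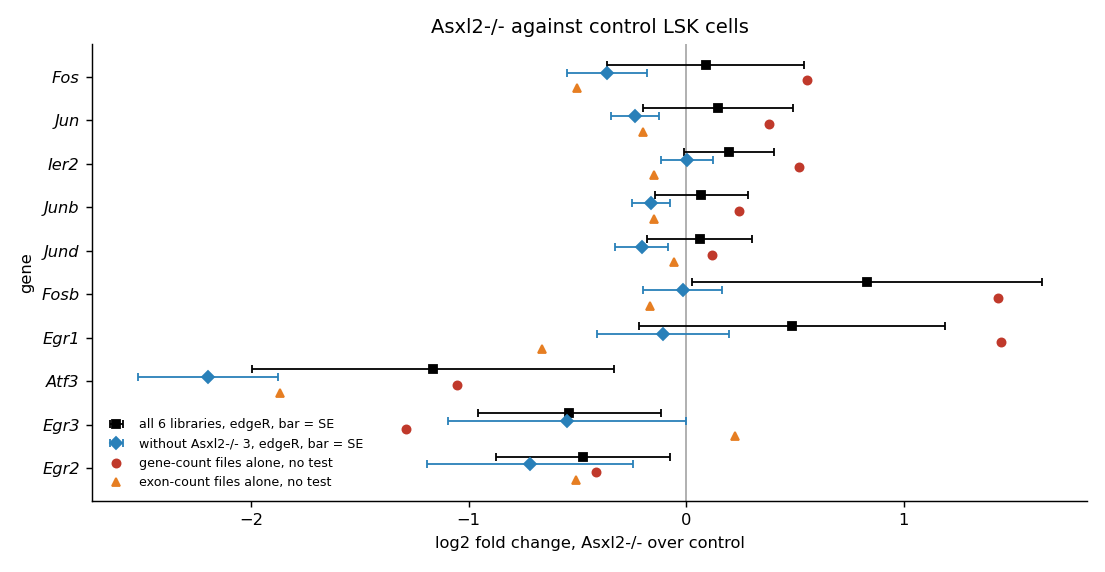
Log2 fold change of Asxl2-/- over control for each gene, with all 6 libraries (black squares) and without Asxl2-/- replicate 3 (blue diamonds), bars showing the SE from edgeR, and in each kind of file alone with no test (red circles, orange triangles). For Fos, Fosb, Jun, Junb, Jund, Egr1 and Ier2 the gene-count files lie right of 0 and the exon-count files left of it, and Atf3 lies left of 0 in every setting shown.

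The sign of most members rested on single libraries. Leaving out Asxl2-/- replicate 3 turned Fos, Fosb, Jun, Junb, Jund and Egr1 to values below 0, from -0.36 for Fos to -0.017 for Fosb, and moved the median of the 10 genes to -0.22. Without that library 0 of 10 genes passed in edgeR, beside 0.651% of 14748 genes tested (0.427% raised and 0.224% lowered), and Atf3 alone had an unadjusted p under 0.05 (23.5% of all genes). Leaving out control replicate 2, the only gene-count control, leaves the contrast to the exon-count files, and the median was then -0.19. Egr2 and Atf3 kept a value below 0 whichever library was left out, from -0.72 to -0.34 for Egr2 and from -2.20 to -0.43 for Atf3.

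Asxl2-/- replicate 3 held the highest level among the 3 gene-count libraries for 8 of the 10 genes, where 23.3% of all genes tested were highest in it. The exceptions were Egr2 and Egr3, which were highest in control replicate 2. Among the 3 exon-count libraries, Asxl2-/- replicate 2 was the lowest for 8 of the 10 genes, where 38.0% of all genes tested were lowest in it. The exceptions there were Fosb, lowest in control replicate 3, and Egr3, lowest in control replicate 1. With the effect of the kind of file taken off, the knockout group held both the highest library (replicate 3) and the lowest (replicate 1) for Fos, Jun, Junb and Jund, while Fosb, Egr1 and Ier2 were lowest in control replicate 2.

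Asxl2-/- replicates 1 and 3 share genotype, kind of file and similar totals, and their ratio describes how far these mice or preparations differed, with no test. Atf3 was 7.51 times higher in replicate 3 (95% exact interval 5.64 to 10.2, counting error only), Fosb 4.96 times (4.77 to 5.16), Egr1 2.92 times (2.76 to 3.08), Fos 2.45 times (2.39 to 2.51) and Jun 2.25 times (2.19 to 2.31). Jund, Junb and Ier2 followed at 1.87, 1.63 and 1.41 times, while the intervals of Egr2 (0.887 to 3.69) and Egr3 (0.931 to 2.61) included 1. On the log2 scale the median over the 10 genes was 1.03 beside -0.025 over all genes tested. All 10 genes lay above percentile 90 of that ratio. Among the 10927 genes with at least 100 counts in both libraries, Fosb ranked 2, Egr1 19, Fos 35, Jun 46, Jund 92, Junb 148 and Ier2 286. Atf3, with 54 counts in Asxl2-/- replicate 1, was not ranked.

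The like ratio between control replicates 1 and 3, both exon-count files, was smaller. Its median over the 10 genes was 0.07 on the log2 scale beside -0.039 over all genes tested. Fos and Fosb were at 0.42 and 0.43, higher in control replicate 1, and Atf3 at -0.68, higher in control replicate 3.

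**Figure D3:**
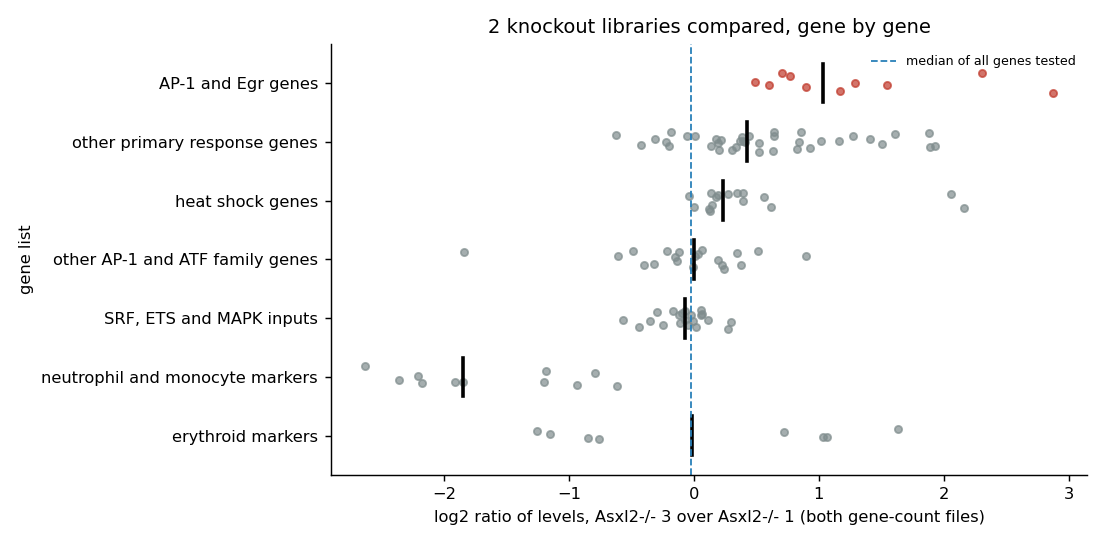
Log2 ratio of levels in Asxl2-/- replicate 3 over Asxl2-/- replicate 1 for each gene of 7 lists, 1 point per gene, with the list's median as a black bar and the median of all genes tested as a dashed line. The AP-1 and Egr genes have a median of 1.03, the other primary response genes 0.43, the heat shock genes 0.23 and the neutrophil and monocyte markers -1.85.

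The 40 other primary response genes listed, such as dual-specificity phosphatases, Klf and Nr4a factors and NF-kappaB inhibitors, gave 38 genes for testing. None was called raised or lowered in edgeR or in DESeq2, which called 2.34% and 16.5% of all genes. An unadjusted edgeR p under 0.05 was found for 4 of the 38, beside 27.7% of all genes tested. The log2 fold change was above 0 for 31 of 38, beside 7084 of all 14145 genes tested, with a median of 0.33. Leaving out Asxl2-/- replicate 3 brought that median to 0.06. Levels were highest in that library for 29 of the 38 among the gene-count files, beside 23.3% of all genes tested. In its ratio to Asxl2-/- replicate 1, 25 of the 38 lay above percentile 90. Genes that turn signals off were among them by name: Dusp1, a phosphatase of MAP kinases, stood at 302 CPM in Asxl2-/- replicate 3 and at 87.8 to 125 CPM in the other 5 libraries, and Tnfaip3, an inhibitor of NF-kappaB, at 105 CPM against 27.9 to 47.0 CPM. Klf6, a zinc finger factor, was at 368 CPM against 72.7 to 110 CPM, and Nr4a1, an orphan nuclear receptor, at 74.6 CPM against 12.3 to 32.95 CPM. These 4 were chosen after their values were seen, as was Myc. Myc was at 356 CPM against 227 to 344 CPM.

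The smallest p-values of that list belonged to Arc (log2 fold change 1.497 ± 0.41, SE, edgeR adjusted p = 0.0958), Id2 (-1.37 ± 0.42, adjusted p = 0.113), Ier5l (1.10 ± 0.38, adjusted p = 0.135) and Klf4 (-0.75 ± 0.27, adjusted p = 0.148). Klf4 was higher in Asxl2-/- replicate 3 than in replicate 1 (log2 ratio 0.93) and Id2 lower (-0.23), while the counting intervals of Arc (0.419 to 1.49 times) and Ier5l (0.526 to 1.03 times) included 1. Id2, an inhibitor of E proteins, was at 88.7 CPM in control replicate 2 and 15.4 to 27.8 CPM in the other 5 libraries.

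Heat shock genes serve the chaperone response to unfolded protein. Of 16 genes, 0 were called in edgeR and 7 had an unadjusted p under 0.05, beside 2.34% and 27.7% of all genes tested. The log2 fold change was below 0 for 14 of the 16, with a median of -0.30. Of all 14145 genes tested, 7084 were above 0. DESeq2 called 5 of the 16 heat shock genes, beside 16.5% of all genes. In the ratio of Asxl2-/- replicate 3 to replicate 1, 7 of the 16 lay above percentile 90, Hspa1a and Hspa1b at ranks 4 and 5 of 10927, and the median was 0.23 on the log2 scale. Their summed level was 8065 to 11140 CPM in the knockout and 11880 to 14150 CPM in the control libraries. The smallest p-values were those of Hsph1 (-0.38 ± 0.094, SE, edgeR adjusted p = 0.0824), Hspe1 (-0.56 ± 0.15, adjusted p = 0.0958), Hspd1 (-0.55 ± 0.16, adjusted p = 0.104) and Hsf1 (-0.25 ± 0.076, adjusted p = 0.114). Hspa1a and Hspa1b, the strongly inducible Hsp70 genes and near-identical copies whose reads may be shared, were likewise named after their values were seen. Hspa1a was at 8.55, 10.8 and 38.5 CPM in the knockout and 15.7, 113 and 8.94 CPM in the controls, and Hspa1b at 17.5, 19.3 and 73.0 CPM and 30.9, 185 and 17.4 CPM. Both were highest in control replicate 2, the only gene-count control. That library also had the highest CPM of the 3 controls for Jun, Junb, Jund, Ier2, Atf3, Egr2 and Egr3, and the lowest for Fosb and Egr1, a comparison that crosses the kinds of file.

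**Figure D4:**
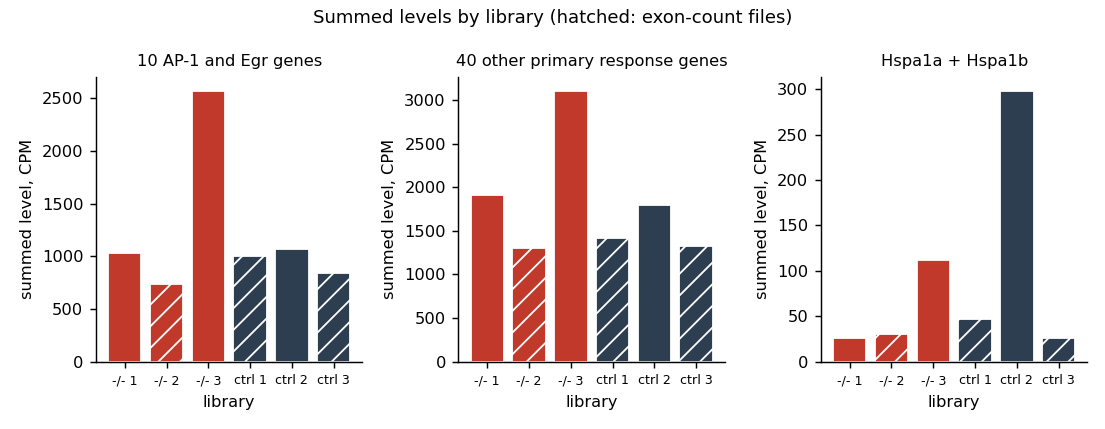
Summed level (CPM, bars from 0) of the 10 AP-1 and Egr genes, the 40 other primary response genes and the Hsp70 genes Hspa1a and Hspa1b in each library, red for Asxl2-/-, blue for control, hatched for exon-count files. The first and second sums are highest in Asxl2-/- replicate 3 (2570 and 3107 CPM), and the Hsp70 sum is highest in control replicate 2.

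Summed over the 10 genes, the level was 1026, 741 and 2570 CPM in Asxl2-/- replicates 1, 2 and 3 and 999, 1073 and 840 CPM in the controls, or 1446 ± 984 CPM against 971 ± 119 CPM (SD, n = 3). These sums and means were not adjusted for the kind of file, which was split unevenly between the groups. The knockout range enclosed the control range. Fos alone made up 30.6% to 37.1% of the sum in each library, and without it the order at both ends was the same, with 1767 CPM in Asxl2-/- replicate 3 and 514 CPM in replicate 2.

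Of 20 other members of the AP-1 and ATF families, 0 were called in edgeR (2.34% of all genes) and 2 in DESeq2 (16.5%). An unadjusted edgeR p under 0.05 was found for 3 of the 20 (27.7% of all genes). Among the gene-count files 4 of the 20 were highest in Asxl2-/- replicate 3 (23.3% of all genes). The median log2 ratio of that library to Asxl2-/- replicate 1 was -0.0022. Batf2, Batf3, Maff and Crem, 4 of the 20, lay above percentile 90 of that ratio. Fosl2, a Fos relative, was at 12.5 CPM in Asxl2-/- replicate 3 and 15.6 CPM in replicate 1. The smallest p-values were those of Batf3, needed for one dendritic cell type (-2.23 ± 0.71, SE, edgeR adjusted p = 0.119), Atf4, of the integrated stress response (-0.33 ± 0.11, adjusted p = 0.133), Atf5 (-0.34 ± 0.14, adjusted p = 0.177) and Batf (0.36 ± 0.16, adjusted p = 0.208).

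The upstream factors listed were SRF with its coactivators, the Elk factors and the MAP kinase chain. Of 21 genes, 0 were called in edgeR (2.34% of all genes) and 3 in DESeq2 (16.5% of all genes). An unadjusted edgeR p under 0.05 was found for 4 of the 21 (27.7% of all genes). The median log2 fold change was 0.07, and no gene lay above percentile 90 of the ratio between Asxl2-/- replicates 3 and 1. Srf had 76.0, 81.8 and 67.6 CPM in the knockout and 75.6, 89.0 and 78.0 CPM in the controls. Map2k2 (-0.43 ± 0.091, SE, edgeR adjusted p = 0.066), Rps6ka5 (0.48 ± 0.12, adjusted p = 0.0811), Mkl2 (0.60 ± 0.17, adjusted p = 0.104) and Elk1 (0.33 ± 0.12, adjusted p = 0.137) had the smallest p-values. RNA levels of kinases do not measure their activity.

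The genes whose profile over the 6 libraries lay closest to the mean profile of the 10 genes, by root mean square difference of centred log2 CPM with the effect of the kind of file taken off, were Mfsd2b (0.0748), Klf2 (0.0899), Cd69 (0.122), Pfn4 (0.123) and Gna14 (0.124). Klf2 is itself on the list of primary response genes, and Mfsd2b, Cd69, Pfn4 and Gna14 are not. Cd69 is an early activation antigen of lymphocytes. Mfsd2b, the nearest, was at 121, 163 and 245 CPM in the knockout and 224, 149 and 221 CPM in the controls. Klf2 was at 16.6, 14.8 and 47.4 CPM in the knockout and 18.6, 27.0 and 17.99 CPM in the controls. Cd69 was at 41.5, 31.2 and 75.9 CPM and 39.0, 49.9 and 41.4 CPM. Of the 10 genes themselves, Jun lay nearest to their mean profile (0.105) and Atf3 farthest (0.850).

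Some marker genes of other cells differed between the groups or in the library that stood apart, and others did not. Their part in the values above was not tested. In these bulk samples, fewer cells of a type and less RNA per cell cannot be told apart. Slamf1, a surface marker of stem cells within the LSK gate, was raised in Asxl2-/- by 1.52 ± 0.17 on the log2 scale (SE, adjusted p = 0.0196 in edgeR), but did not pass without Asxl2-/- replicate 3 (adjusted p = 0.0574). Kit was at 280 to 431 CPM in every library, and Ly6a, which encodes Sca-1, at 52.6 to 69.1 CPM in the knockout and 40.5 to 260 CPM in the controls. Of 11 neutrophil and monocyte markers, Ltf and Ngp were raised, the summed level was 2071 to 5487 CPM in the knockout and 2118 to 6429 CPM in the controls, and the median ratio of Asxl2-/- replicate 3 to replicate 1 was -1.85 on the log2 scale. Without Asxl2-/- replicate 3, 6 of the 11 were raised.

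Among the B cell markers, Cd79a, Ebf1, Pax5 and Vpreb3 were raised, with summed levels of 127 to 145 CPM in the knockout and 36.3 to 53.1 CPM in the controls, and Cd79a and Ebf1 were also raised without Asxl2-/- replicate 3. Of 6 megakaryocyte markers, Pf4, Ppbp and Vwf were raised (276 to 787 CPM against 136 to 331 CPM), and 1 without that library. None of 7 T and NK cell markers was called in edgeR with all libraries (114 to 167 CPM against 126 to 158 CPM). The same held for 8 erythroid markers (362 to 873 CPM against 1222 to 2121 CPM). It also held for 10 endothelial and stromal markers (177 to 348 CPM against 61.7 to 228 CPM). In that order, 1, 5 and 3 had an unadjusted edgeR p under 0.05, beside 27.7% of all genes tested. Klf1 was lowered without Asxl2-/- replicate 3. Of the 8 erythroid markers, Car1, Rhag, Klf1 and Epor lay above percentile 90 of the ratio of that library to Asxl2-/- replicate 1, with log2 ratios of 1.63, 1.07, 1.03 and 0.72, and the other 4 were below 0. No marker of these lists was at 0 in a library, and the endothelial and stromal markers Cdh5 and Lepr stayed under 1 CPM throughout.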

How the data were processed

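Poly(A)-selected, unstranded RNA libraries of LSK cells (3 Asxl2-/- and 3 control mice) were sequenced by the authors. The authors deposited raw counts per RefSeq transcript on mm10, 33068 lines in the gene-count files and 317548 lines, 1 per exon, in the exon-count files. The submitters' processing notes name STAR, featureCounts and DESeq2 without versions or roles, and replicates were not pooled.

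Each symbol was represented by its longest transcript, and exon counts were summed over it. Spliced reads can thus be counted more than once in the exon-count files, which raises genes with many exons there, so the kind of file was used as a batch term. Groups and replicate numbers were taken from the genotype labels and titles. The test was glmQLFTest of edgeR 4.0.16 under R 4.3.3 on raw counts (TMM scaling, filterByExpr, a design of kind of file plus group with 3 residual degrees of freedom), with two-sided p-values adjusted by Benjamini-Hochberg over all 14145 genes tested and a threshold of 0.05. Each SE is the log2 fold change divided by the root of F. Log2 CPM used a prior count of 2, and group means on that scale had the effect of the kind of file removed, which makes their SDs somewhat small. Fold changes within a kind of file rest on 3 libraries and carry no test. The ratio of Asxl2-/- replicates 3 and 1 has an exact 95% interval for counting error, and floors were taken as 3 counts. Reads without molecular identifiers are not independent molecules, so intervals and floors cover counting error only. Chi-square values per degree of freedom between libraries of a group were 25.2 or higher, far above sampling noise, so no library was counted as a repeat of another. The script was tested on simulated data.

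The members and gene lists were chosen with earlier results of these data known, although their rule sets no threshold on a measured value. Named were the 10 members, Asxl2, up to 4 genes per list with the smallest p-values, every list gene past the threshold and the 5 nearest profiles. Some genes that the rule names are not reported here. Xist, Nab1, Fosl2, Srf, Kit and Ly6a were added as context, and genes said to be chosen afterwards lie outside the rule. Alternatives were DESeq2 1.42.0, limma-voom (limma 3.58.1), other scalings and filters, fits without the covariate or with the replicate number as a block, the longest exon, subsets of genes, either kind of file by itself and the removal of single libraries. Promoter windows came from RefSeq tables (GRCm38.p6), which held 7 of the 10 genes.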

Additional observations from a re-analysis of the deposited data

How the results depend on the processing

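Of 184 refits of single members, 3 passed the threshold, all with the replicate block together with the kind of file: Fosb (0.64, edgeR adjusted p = 0.000659), Egr1 (0.39, adjusted p = 0.00663) and Atf3 (-1.41, adjusted p = 5.85e-09). Same-numbered knockout and control libraries had deviations from their group means correlated at 0.294, -0.00766 and -0.00277. Each such pair crossed the kinds of file, and the deviations were not adjusted for that. These values therefore cannot decide whether the numbers pair the samples. The main fit had no such block because the study names no pairing. The fit with the replicate block and the kind of file also leaves fewer residual degrees of freedom than the 3 of the main fit. That block moved the count of genes past the threshold from 331 to 5179 and called 3 members, 18 other primary response genes, 13 heat shock genes, 7 other AP-1 and ATF genes and 6 SRF, ETS and MAPK genes, each from 0, and the block without the kind of file called 1 AP-1 or ATF gene.

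The genes past the threshold numbered 2329 with DESeq2, 161 with library size only and 36 of 683 genes with 1 exon (5.27%). DESeq2 called 5 heat shock, 2 other AP-1 and ATF and 3 SRF, ETS and MAPK genes, and using only the longest exon called 1 of the last list. Leaving out 1 library gave 9 (without control replicate 3) to 1312 (without control replicate 1) genes past the threshold, 0 to 0 members, 0 to 4 other primary response genes, 0 to 0 heat shock genes, 0 to 1 AP-1 and ATF genes, 0 to 3 SRF, ETS and MAPK genes, and a members' median of -0.22 to 0.39. Without Fos the summed level of the controls was 628, 724 and 563 CPM.

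The exon-count files alone turned the sign of Fos (-0.50), Fosb (-0.17), Jun (-0.20), Junb (-0.15), Jund (-0.058), Egr1 (-0.67), Egr3 (0.22) and Ier2 (-0.15). Leaving out 1 library gave log2 fold changes from -0.52 to 0.70 for Fos, -0.18 to 1.85 for Fosb, -0.23 to 0.49 for Jun, -0.16 to 0.29 for Junb, -0.21 to 0.20 for Jund, -0.66 to 1.65 for Egr1, -1.29 to 0.24 for Egr3 and -0.14 to 0.54 for Ier2, with the turns made by Asxl2-/- replicate 3 and control replicate 2. No other alternative turned the sign of a member. The cause of these shifts was not tested.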

Other observations

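Among genes with at least 100 counts in both libraries, those with the largest ratios of Asxl2-/- replicate 3 to replicate 1 included Fosb. They also included interferon-inducible GTPase genes, named here after their values were seen. Gm4841 ranked 1 of 10927 with a log2 ratio of 2.34 (172 counts in replicate 1 and 884 in replicate 3). Iigp1 followed at rank 3 (2.20, 1406 and 6508 counts), Gbp6 at rank 6 (1.95, 164 and 641 counts) and Gbp2 at rank 12 (1.74, 1626 and 5472 counts). Both mice had received the interferon inducer pIpC weeks before the cells were taken, and the 2 libraries give no test of the difference.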
